A study of Mus musculus with 7 samples.

Results

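The colony-stimulating factors are secreted proteins that keep blood cells of the myeloid lineages alive, make them divide and steer their maturation, and each acts through a receptor on the surface of those cells. Rows of the count table were taken by gene symbol for 8 genes of this axis, out of 21878 genes in all: the ligands Csf1, Il34, Csf2 and Csf3, and the receptor genes Csf1r, Csf2ra, Csf2rb and Csf3r. All 8 were in the table, and 6 had enough counts to enter the fit over 12997 genes. The genes Csf2 and Csf3 did not. The set was proposed after the difference of Csf1 between the groups of this study had been seen, so the values of the 8 genes are given as a description, with no p-value, and the counts of calls among them support nothing.

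The RNA came from 7 samples of grafts of B16F10, a pigmented melanoma cell line of C57BL/6 origin, grown in female C57BL/6J mice. The labels give no genetic change and no age, and mice were assigned to groups at random once tumours could be felt. The control group, labelled NC, held 3 samples, and the labels name no vehicle for it. The other group, labelled Zelnorm with titles and columns that read MBZ, held 4 samples from mice dosed orally with 1.25 mg/kg, with 2 days between doses. Tegaserod, sold as Zelnorm, is an agonist of the 5-HT4 serotonin receptor, and the labels do not say what the letters MBZ stand for. The counts cannot show which drug was given, so the name Zelnorm rests on the treatment label alone. Samples are called tumours here, although the labels do not state that each came from its own tumour or mouse. The host mice keep their own immune cells, so each library mixes transcripts of graft and host. The title of the series speaks of the tumour's immune microenvironment, and the contrast of the groups addresses an effect of the drug on it.

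CSF1 and IL-34 are separate ligands of one receptor tyrosine kinase, the product of Csf1r, which monocytes and macrophages carry and which most tissue macrophages need to survive. CSF2, also called GM-CSF, binds an alpha chain encoded by Csf2ra together with the beta chain encoded by Csf2rb, and signals through JAK2 and STAT5. CSF3, also called G-CSF, binds the receptor encoded by Csf3r and drives the production of neutrophils. In tumours, CSF1 is known as a signal that draws in and maintains macrophages.

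Library totals ran from 16903598 to 19666598 counts, and levels are given in CPM, counts scaled to the library size after TMM adjustment. The detection floor was set at 3 counts, worth 0.152 to 0.178 CPM, and covers counting error only. Melanoma and melanocyte markers summed to 25960 to 30340 CPM in every library, with Tyrp1 and Dct the most abundant, as the label of the graft says. The libraries differed in the transcripts of other cells. Skeletal muscle markers summed to 40.3 CPM in NC_5, 132 in MBZ_11 and 350 in MBZ_15 and to between 5.66 and 18.0 CPM in the other libraries. NC_10 stood apart from the other NC libraries, with macrophage markers at 605 CPM in sum against 324 and 294, and fibroblast markers at 1774 against 680 and 767. No pair of libraries agreed within sampling noise, with a chi-square per degree of freedom of at least 6.53. Since separate mice are not stated, the SD and SE measure the spread between these samples, which may be technical.

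Among the ligands, the transcript of Csf1 (GRCm38.p6 chromosome 3, 107741048 to 107760469, minus strand) was the abundant one. It stood at 17.3 CPM in NC_5, 18.2 in NC_6 and 19.0 in NC_10. In the Zelnorm tumours it stood at 26.5 CPM in MBZ_9, 30.5 in MBZ_11, 25.3 in MBZ_13 and 27.7 in MBZ_15. Every Zelnorm library lay above every NC library, and the gap between the groups was wider than the range within either one. The means were 18.1 ± 0.844 CPM (SD, n = 3) and 27.5 ± 2.25 CPM (SD, n = 4), which differ by 0.60 ± 0.09 (SE) on the log2 scale. This value exceeded that of 93.8% of all tested genes. The counts behind it were 319 to 375 per NC library and 450 to 546 per Zelnorm library. The spread of Csf1 among NC libraries was small for its level, as only 21.2% of 2140 genes within 0.5 log2 CPM of it had a smaller SD there. Among Zelnorm libraries its spread was ordinary, with 51.2% of these genes below it.

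**Figure D1:**
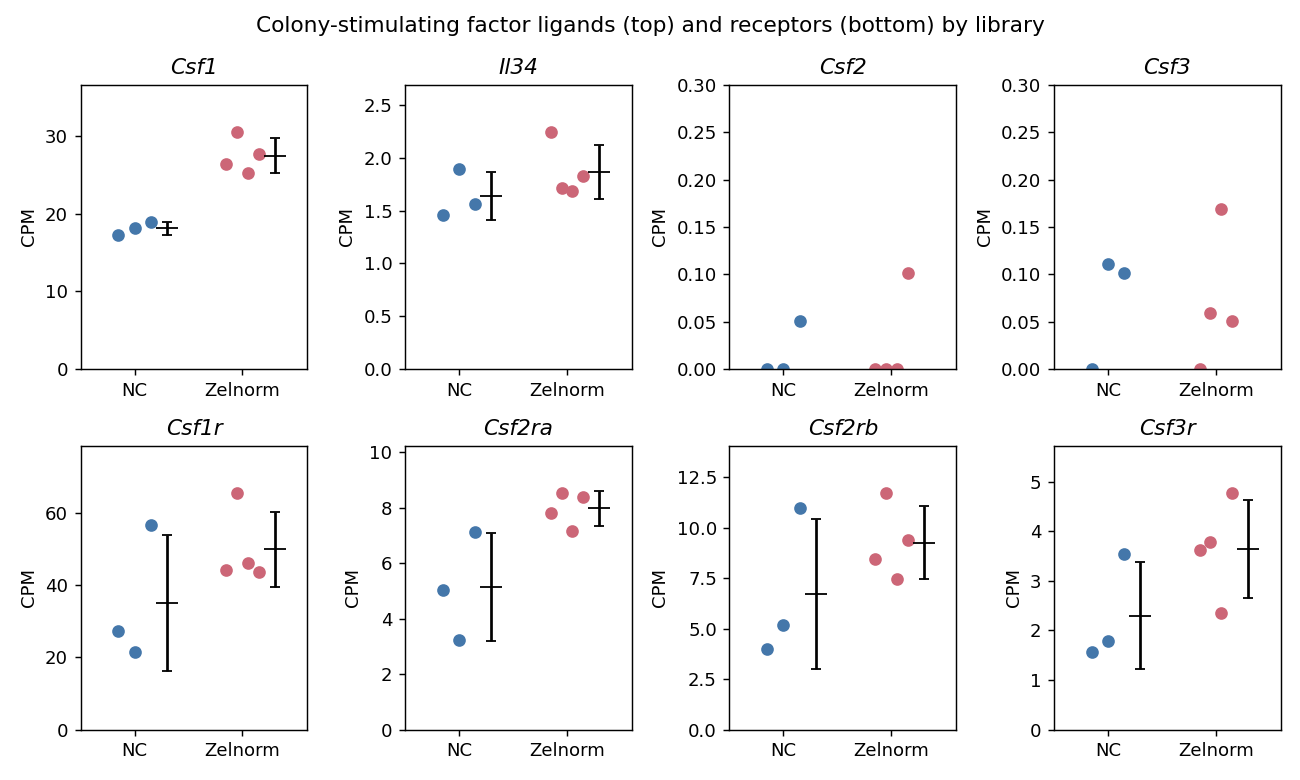
CPM of the 8 genes by library (y axis, starting at 0), with NC tumours in blue and Zelnorm tumours in red; bars give the mean and SD, left out for Csf2 and Csf3, which lie near the floor. Csf1 separates the groups, from 17.3 to 19.0 CPM in NC and from 25.3 to 30.5 CPM in Zelnorm tumours, while 1 NC library (NC_10) lies among or next to the Zelnorm libraries for each receptor.

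The other ligand of the same receptor, Il34 (chromosome 8, 110741829 to 110805949), was low. It had 1.46, 1.89 and 1.57 CPM in NC_5, NC_6 and NC_10, and 2.24, 1.72, 1.69 and 1.83 CPM in MBZ_9, MBZ_11, MBZ_13 and MBZ_15. The groups overlapped, since NC_6 lay above 3 of the 4 Zelnorm libraries, and the log2 fold change was 0.19 ± 0.26 (SE). Counts were only 27 to 39 per library, and the SE is accordingly wide. Outside tumours, IL-34 is made chiefly by keratinocytes and neurons. Keratinocyte markers summed to 0 to 17.4 CPM, with their highest value in MBZ_11 and a sum of 0 in MBZ_9, the library with the most Il34. The gene models Gm15894 and Gm15895 lie on the opposite strand of Il34, and since the strand setting of the counting is not stated, their reads may be part of its count.

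Csf2 (chromosome 11, 54247270 to 54249899) and Csf3 (chromosome 11, 98700183 to 98703631) were at or below the floor of 3 counts in all 7 libraries. Csf2 was read once in NC_10 and 2 times in MBZ_15 and had 0 counts in the other 5 libraries. Csf3 had 0, 2 and 2 counts in NC_5, NC_6 and NC_10, and 0, 1, 3 and 1 in MBZ_9, MBZ_11, MBZ_13 and MBZ_15. At this depth no difference between the groups was detectable for either gene, and no fold change is given.

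Each of the receptor genes had its lowest values in NC_5 and NC_6, while NC_10 lay above at least 1 Zelnorm tumour for Csf1r, Csf2rb and Csf3r and just below the lowest one for Csf2ra. Csf1r (chromosome 18, 61105572 to 61131139) stood at 27.3 CPM in NC_5, 21.5 in NC_6 and 56.6 in NC_10. In the Zelnorm tumours it stood at 44.2 CPM in MBZ_9, 65.5 in MBZ_11, 46.2 in MBZ_13 and 43.7 in MBZ_15. NC_10 was thus above 3 of the 4 Zelnorm libraries. The means were 35.1 ± 18.8 CPM (SD, n = 3) and 49.9 ± 10.5 CPM (SD, n = 4), and the log2 fold change of 0.50 was less than 2 times its SE of 0.28. Without NC_10 it was 1.02 ± 0.17, and without NC_6 it was 0.24 ± 0.26. The SD of Csf1r among the NC libraries exceeded that of 99.1% of 2460 genes of a like level, and among the Zelnorm libraries that of 98.2%. Hmgxb3 overlaps Csf1r on the opposite strand, and the share of its reads in this count is not known.

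The GM-CSF receptor genes had the same low pair of NC libraries. Csf2ra, for the ligand-specific alpha chain (chromosome 19, 61217191 to 61228461), had 5.04, 3.23 and 7.13 CPM in NC_5, NC_6 and NC_10. It had 7.82, 8.52, 7.14 and 8.38 CPM in MBZ_9, MBZ_11, MBZ_13 and MBZ_15. The groups did not overlap, but MBZ_13 and NC_10 differed by less than their counting error, at 127 and 141 counts. The log2 fold change of Csf2ra was 0.63 ± 0.23 (SE), 0.94 ± 0.21 without NC_10 and 0.38 ± 0.18 without NC_6.

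Csf2rb encodes the beta chain that GM-CSF shares with IL-3 and IL-5 (chromosome 15, 78325800 to 78351001). It had 4.01, 5.18 and 11.0 CPM in NC_5, NC_6 and NC_10, and 8.45, 11.7, 7.48 and 9.39 CPM in MBZ_9, MBZ_11, MBZ_13 and MBZ_15. NC_10 was second only to MBZ_11. The log2 fold change was 0.46 ± 0.30 (SE) with all libraries, 1.01 ± 0.21 without NC_10 and 0.19 ± 0.29 without NC_5. Mice carry a second beta chain gene, Csf2rb2, which serves IL-3 alone and lies 20078 bases from Csf2rb. Of all windows of 50 bases in the longest Csf2rb transcript, 18.4% also occur in Csf2rb2 transcripts, so reads from these stretches cannot be assigned to either gene with certainty. Csf2rb2 itself ran from 2.39 to 5.51 CPM in NC and from 2.95 to 6.10 CPM in Zelnorm tumours, with a log2 fold change of 0.30 ± 0.35 (SE).

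Csf3r, the receptor of G-CSF and a gene of neutrophils and their precursors (chromosome 4, 126023441 to 126044975), had the fewest counts of the receptors. It had 1.57, 1.78 and 3.54 CPM in NC_5, NC_6 and NC_10. It had 3.62, 3.79, 2.36 and 4.77 CPM in MBZ_9, MBZ_11, MBZ_13 and MBZ_15. MBZ_13 lay below NC_10, so the groups overlapped. The log2 fold change was 0.66 ± 0.34 (SE), 1.11 ± 0.32 without NC_10 and 0.445 ± 0.36 without NC_5. Neutrophil markers were sparse in the same libraries: 7 of 12 had too few counts for the fit, among them S100a8 and S100a9, Ly6g had 1 count in 7 libraries, and the list summed to 3.74 to 14.1 CPM in NC and 5.29 to 14.3 CPM in Zelnorm tumours. Within these ranges the sum was lowest in NC_5, MBZ_13 and NC_6 in this order, the libraries that also had the least Csf3r. This is not particular to neutrophil markers. Monocyte markers were lowest in the same libraries, with sums of 172 CPM in NC_5, 214 in NC_6 and 325 in MBZ_13, the order of Csf3r itself.

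The promoter of Csf1 is shown because this gene separated the groups by a wide gap. Csf2ra separated them by a narrow one, and its promoter is described without its letters. The RefSeq promoter table (GRCm38.p6) had an entry for 4 of the 8 genes, Csf1, Csf2, Csf2ra and Csf3r. The stretch of Csf1 lies at chr3:107760470-107760719 on the minus strand and holds the 250 bases before the annotated start, 5′ to 3′ on the strand of the gene, with matches of any of 7 short motifs in capitals.
Csf1: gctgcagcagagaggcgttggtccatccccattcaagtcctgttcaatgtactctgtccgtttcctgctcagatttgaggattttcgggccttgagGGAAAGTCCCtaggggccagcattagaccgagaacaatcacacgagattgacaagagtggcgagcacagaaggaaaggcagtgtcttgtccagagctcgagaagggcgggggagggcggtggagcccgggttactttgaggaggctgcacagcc

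The motifs were searched on both strands, and N stands for any base. Csf1 held 1 match of the NF-kappaB motif (GGGA, any base, TTTCC), on the reverse strand from 154 to 145 bases before the start, and 0.356% of 32851 promoter stretches of this length held one. The table's starts for Csf2ra and Csf3r lie inside the gene spans given above, so the 250 bases before them fall partly (Csf2ra) or wholly (Csf3r) within the span. Csf2ra held 2 matches of the PU.1 motif GAGGAAG, which overlap by 1 base and end 2 bases before the start. Csf3r held 1, from 86 to 80 bases before the start. This motif is common and was found in 10.6% of all stretches. The other motifs, RUNX (TGTGGT, 14.0% of stretches), AP-1 (TGANTCA, 6.75%), the interferon-stimulated response element (GAAA, any 2 bases, GAAA, 2.98%), the STAT element GAS (TTC, any 3 bases, GAA, 7.02%) and C/EBP (TTGC, any 2 bases, AA, 9.56%), had no match in the windows of these 3 genes. The window of Csf2 held 1 match, of the C/EBP motif, on the forward strand from 145 to 138 bases before the start. A match describes letters only, and binding was not measured here.

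Counted together, 2 of the 6 tested genes, Csf1 and Csf2ra, separated the groups with all Zelnorm libraries on top, and 0 did so the other way round. Over all tested genes these shares were 5.33% and 4.27%. Without NC_10, an alternative added after its values were seen, 5 of the 6 separated the groups with Zelnorm on top, all but Il34, against 11.5% of all genes, and 0 the other way (8.12%). Without the 3 muscle-rich libraries, 2 did, again Csf1 and Csf2ra, against 17.1%, and 0 the other way (15.4%). By the edgeR quasi-likelihood test with Benjamini-Hochberg adjustment at 0.05, 0 of the 6 genes were called, where 0.0308% of all genes were called higher and 0% lower. Without adjustment, at a p under 0.05, edgeR had 2 of the 6 higher (6.94% of all genes) and 0 lower (3.38%). DESeq2 called 1, Csf1, higher (1.39% of all genes) and 0 lower (0.269%), and limma voom called 0 higher (0.0231%) and 0 lower (0%). As the set was chosen from this contrast, nothing is read from these counts.

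Set beside each other, ligand and receptor ranked the libraries alike only in part. Csf1 was lowest in the 3 NC libraries, NC_5, NC_6 and NC_10 in this order. Csf1r was second highest of all 7 libraries in NC_10, where Csf1 ranked only 5. Both transcripts were highest in MBZ_11, and NC_5 and NC_6 held ranks 6 and 7 for both, in opposite order. There were 1.58, 1.18 and 2.98 Csf1r counts per Csf1 count in NC_5, NC_6 and NC_10, and 1.67, 2.15, 1.82 and 1.58 in MBZ_9, MBZ_11, MBZ_13 and MBZ_15. The ratio thus overlapped between the groups, with its highest and lowest values both in NC tumours. The Pearson correlation of log2 CPM of the pair over the 7 libraries was 0.684. It includes the difference of Csf1 between the groups and carries no test.

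**Figure D2:**
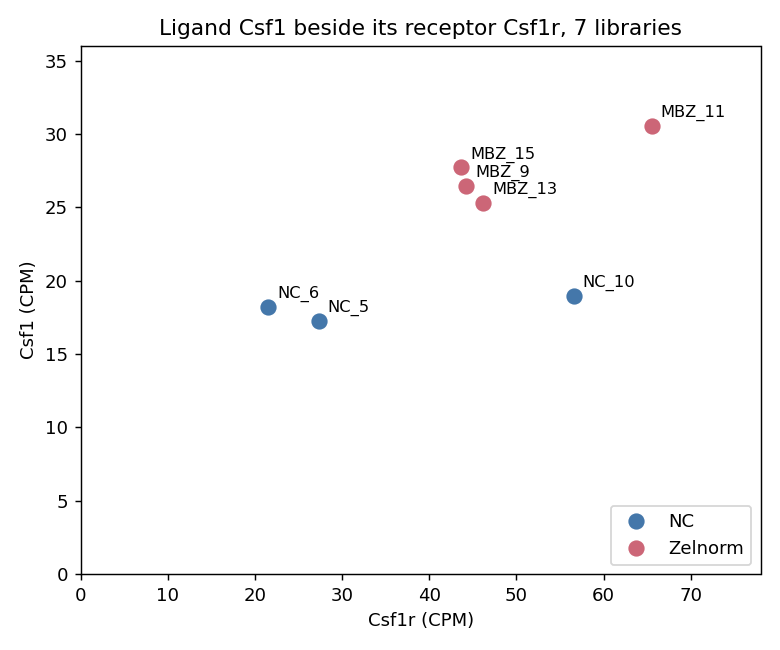
Csf1 (y axis, CPM) against Csf1r (x axis, CPM) in each library, NC in blue and Zelnorm in red, both axes from 0. The NC libraries lie between 17.3 and 19.0 CPM of Csf1 over a range of 21.5 to 56.6 CPM of Csf1r, and every Zelnorm library lies above them.

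Levels of different genes can be compared only per length, here as CPM per kb of exon in the gene model. Csf1r came first, Csf1 next and then Csf2ra in each of the 7 libraries. Their means over the libraries were 7.55 ± 2.65, 4.45 ± 0.999 and 2.35 ± 0.676 CPM per kb (SD, n = 7). In NC_6 the first 2 lay close, with Csf1r at 3.73 and Csf1 at 3.45 CPM per kb. Csf2rb (1.12 ± 0.392), Il34 (0.904 ± 0.130) and Csf3r (0.848 ± 0.327) took ranks 4 to 6 in an order that varied between libraries. By the longest transcript in place of all exons, their means were 1.67, 0.986 and 0.880 CPM per kb. By mean level, Csf2rb was first of these 3 with either length, and further ahead by the longest transcript. Csf2 and Csf3 were last, with at most 0.127 and 0.119 CPM per kb.

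**Figure D3:**
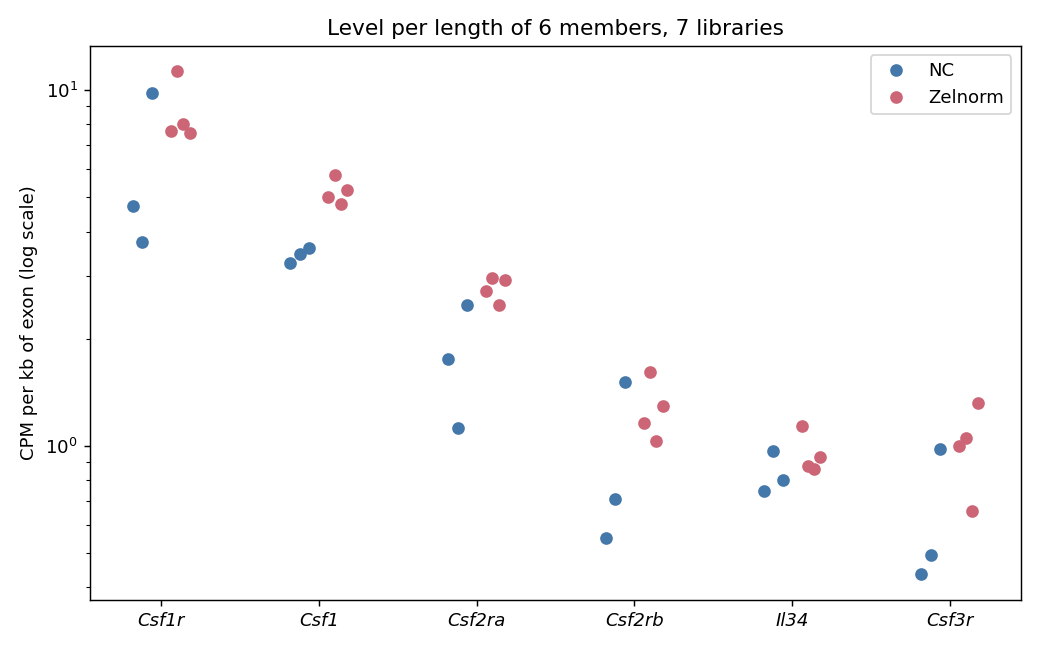
CPM per kb of exon (y axis, log scale) of 6 of the 8 genes in each library, NC in blue and Zelnorm in red; Csf2 and Csf3 are left out because of their counts of 0. Csf1r is highest in each library, between 3.73 and 11.3 CPM per kb, followed by Csf1 between 3.27 and 5.78.

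Macrophage markers were lowest in the same 2 NC libraries as the receptors, NC_5 and NC_6. This was not particular to them. Sums of monocyte, pan-leukocyte, dendritic cell, fibroblast and endothelial markers were lowest in this pair too, and sums of the other lists were not. All 14 macrophage markers were higher in the Zelnorm tumours, with a median log2 fold change of 0.71, where the median of all tested genes was 0.000363. Of all 12997 tested genes, 6518 were higher. The median was 1.04 without NC_10, with 14 of 14 higher, and 0.30 without the 3 muscle-rich libraries, with 13 of 14 higher. By edgeR, 0 of the 14 passed the adjusted threshold (10 at an unadjusted p under 0.05, 2 by DESeq2, which were Ctss and Fcgr1, and 0 by limma voom). Of all tested genes, edgeR called 0.0308% higher and had 6.94% higher at an unadjusted p under 0.05. DESeq2 called 1.39% of them higher and limma voom 0.0231%. The most abundant were Lyz2, the lysozyme of myeloid cells, at 80.3 ± 44.3 CPM in NC and 151 ± 49.0 CPM in Zelnorm tumours, and C1qa, a chain of complement C1q, at 63.3 ± 21.8 and 106 ± 28.9 CPM (SD, n = 3 and 4). The sum of the list ran from 294 to 605 CPM in NC and from 570 to 834 CPM in Zelnorm tumours. Monocyte markers had 8 of 8 genes higher (median 0.88), with 0 called by edgeR and by limma voom, 5 at an unadjusted p under 0.05 and 3 called by DESeq2, among them Ly6c2 and Plac8. Their median was 1.34 without NC_10 and 0.32 without the muscle-rich libraries. In bulk tumours, more cells of a type and more RNA per cell cannot be told apart.

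With the mean log2 CPM of the macrophage markers as a covariate, the values of the receptors moved towards or below 0. The log2 fold change became -0.26 ± 0.13 (SE) for Csf1r, 0.11 ± 0.22 for Csf2ra, -0.28 ± 0.23 for Csf2rb and 0.020 ± 0.36 for Csf3r. That of Csf1 was 0.48 ± 0.12 in the same fit, and that of Il34 was 0.35 ± 0.38. With the pan-leukocyte level as the covariate, Csf1 was at 0.41 ± 0.13, Il34 at 0.20 ± 0.45, Csf1r at -0.27 ± 0.28, Csf2ra at 0.14 ± 0.31, Csf2rb at -0.38 ± 0.32 and Csf3r at -0.09 ± 0.45. The median of the monocyte markers was 0.26 with the macrophage and 0.245 with the pan-leukocyte covariate, with 5 of 8 higher in each fit, and that of the macrophage markers was 0.026 with the pan-leukocyte covariate, with 8 of 14 higher. Both covariates were themselves higher in the Zelnorm tumours on average, so a part of any difference that goes with them is removed by the fit. No fit was made with the level of fibroblast or endothelial markers. In single libraries, Csf1r stood 0.59 to 1.11 above the macrophage level on the log2 scale, a range of both groups together. For Csf1 the same difference was lowest in NC_10, at -0.46, and highest in NC_6, at 0.52, with the Zelnorm libraries between -0.12 and 0.14.

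**Figure D4:**
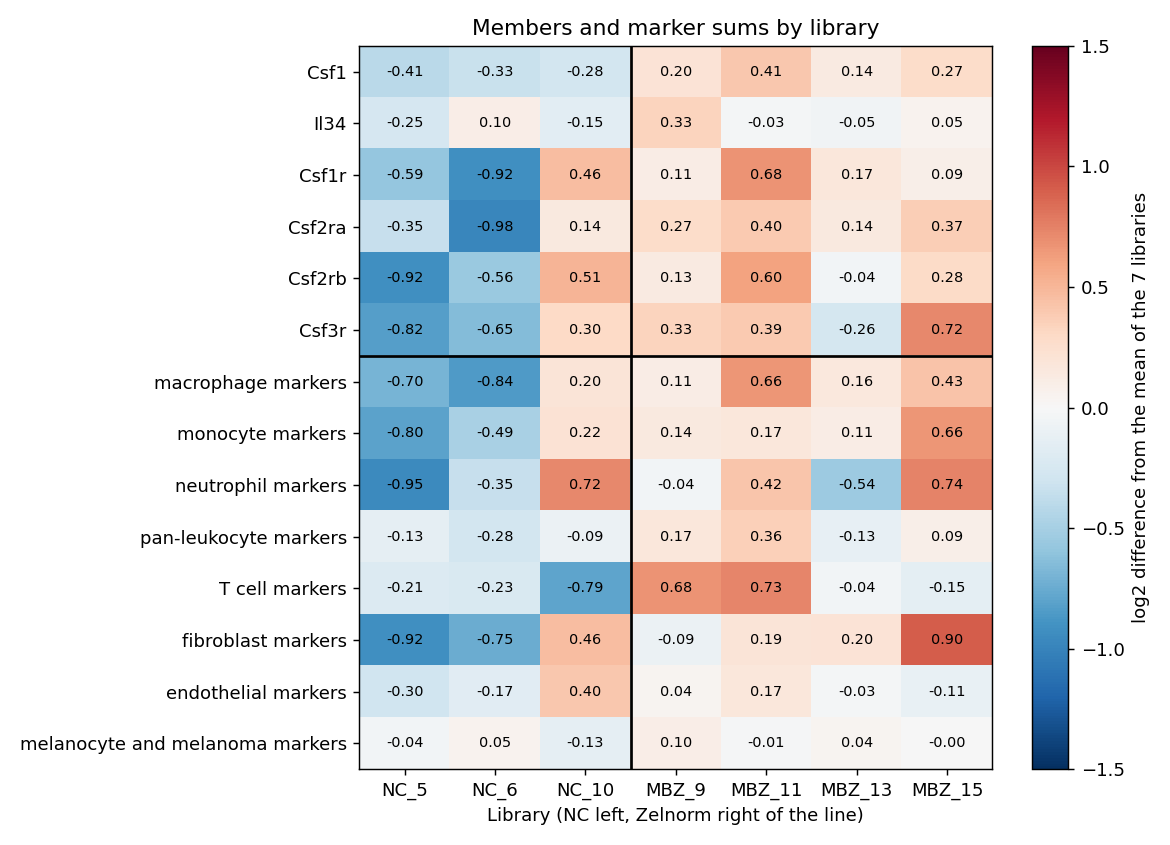
Difference of each library from the mean of the 7 libraries for 6 genes (log2 CPM) and for summed markers of cell types (log2 of the summed CPM plus 1); red is above and blue below the mean, NC libraries are left of the line. NC_10 is red for Csf1r (0.46) and blue for Csf1 (-0.28), and its macrophage (0.20) and fibroblast (0.46) markers are above the mean.

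Other cell types of the graft had the following levels beside Csf1. Fibroblast markers, whose cells are a known source of CSF1, summed to 680, 767 and 1774 CPM in NC_5, NC_6 and NC_10 and to between 1213 and 2415 CPM in Zelnorm tumours, so that NC_10 was high on this list while its Csf1 was not. All 8 fibroblast markers were higher in Zelnorm tumours, with a median log2 fold change of 0.56. The median was 1.09 without NC_10, with 8 of 8 higher. Without the muscle-rich libraries it was 0.015, with 4 of 8 higher. Endothelial markers summed to 198 to 323 CPM in NC and 226 to 275 CPM in Zelnorm tumours. Melanoma and melanocyte markers, with a median log2 fold change of 0.03, summed to 25960 to 29370 CPM in NC and 28110 to 30340 CPM in Zelnorm tumours. T cell markers summed to 10.4 to 16.0 CPM in NC and 16.7 to 31.6 CPM in Zelnorm tumours. The sums did not overlap, but the gap was narrow. MBZ_15 (16.7) and MBZ_13 (18.1) lay near NC_5 (16.0), and MBZ_9 (30.4) and MBZ_11 (31.6) well above. Of the 9 T cell markers tested all were higher and 0 were called by edgeR (2 at an unadjusted p under 0.05, 1 by DESeq2, Cd8a, and 0 by limma voom). Over all tested genes, 6.94% were higher at an unadjusted edgeR p under 0.05 and 1.39% were called higher by DESeq2. Dendritic cell, mast cell and adipocyte sums overlapped between the groups. The part of these cell types in the difference of Csf1 was not tested.

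The 3 libraries richest in muscle transcripts were NC_5, MBZ_11 and MBZ_15, and 2 libraries a group remained without them. The log2 fold change was then 0.47 ± 0.11 (SE) for Csf1, 0.20 ± 0.38 for Csf1r, 0.52 ± 0.36 for Csf2ra, -0.03 ± 0.34 for Csf2rb and 0.16 ± 0.44 for Csf3r. Csf1 kept its direction in these and all other sets of libraries tried, between 0.54 and 0.64 when 1 library was left out. The receptors kept theirs in each set with 1 library left out, but Csf1r ran from 0.24 without NC_6 to 1.02 without NC_10, and Csf2rb from 0.19 without NC_5 to 1.01 without NC_10.

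**Figure D5:**
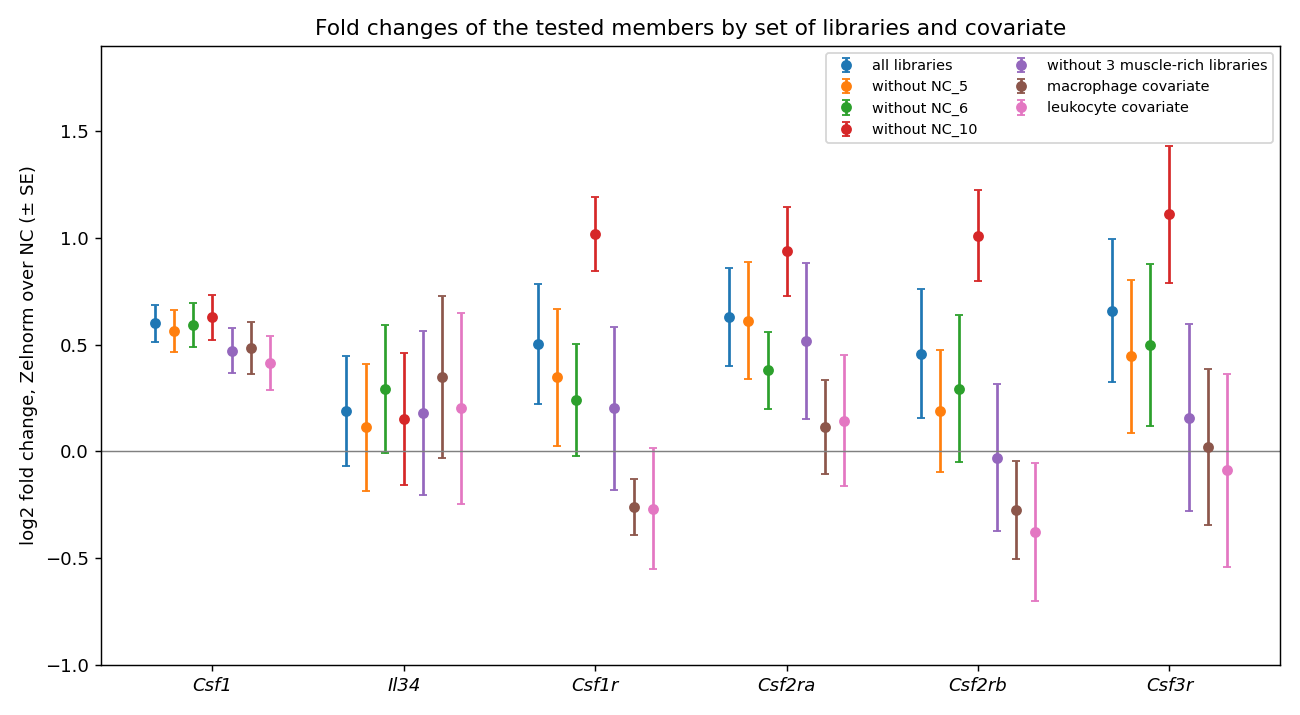
Log2 fold change of Zelnorm over NC (y axis, points, with the SE as bars) of the 6 tested genes for different sets of libraries and covariates (colours). Csf1 stays between 0.41 and 0.63 in the 7 settings drawn, whereas Csf1r runs from -0.27 with the leukocyte covariate to 1.02 without NC_10.

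The signalling genes below these receptors were taken from a list of 29, covering adaptors, kinases and phosphatases of CSF1R and the JAK2 and STAT5 route of CSF2 and CSF3. In Zelnorm tumours 27 of these stood higher and 2 lower, with a median log2 fold change of 0.19. With the macrophage covariate 22 were higher (median 0.12), and with the pan-leukocyte covariate 15 (median 0.016). The pan-leukocyte list itself holds Ptpn6 and Vav1 of these 29 genes, so a part of the change in these genes is built into that fit. By edgeR 0 passed the adjusted threshold (12 had an unadjusted p under 0.05, all higher, and DESeq2 called 3 and limma voom 0). Of all tested genes, 6.94% were higher at an unadjusted edgeR p under 0.05 and DESeq2 called 1.39% higher. Syk, a kinase coupled to ITAM-bearing adaptors, had 13.9 ± 3.00 CPM in NC and 20.9 ± 3.46 CPM in Zelnorm tumours (SD, n = 3 and 4). Socs1, a feedback inhibitor of Janus kinases, had 2.96 ± 0.987 and 6.11 ± 1.78 CPM. The Src family kinase genes Fgr and Lyn had log2 fold changes of 1.31 ± 0.36 and 0.48 ± 0.15 (SE), and for these 4 genes each Zelnorm library lay above each NC library. The 4 were named for having the smallest p of the list in this contrast, so this follows in part from the choice. In the list of 29, 5 genes separated the groups this way (5.33% of all tested genes) and 0 the other way (4.27%). The edgeR adjusted p of the 4 ran from 0.224 to 0.295, and DESeq2 called Fgr, Socs1 and Syk.

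Myeloid transcription factors, several of which control Csf1r, had 11 of 13 tested genes higher and a median of 0.56, with 0 called by edgeR and limma voom, 7 at an unadjusted p under 0.05 and 1 called by DESeq2, Spi1. The shares of all tested genes were 6.94% higher at an unadjusted edgeR p under 0.05 and 1.39% called higher by DESeq2. Spi1 encodes PU.1, a master regulator of macrophages, and had 10.1 ± 4.08 CPM in NC and 18.0 ± 4.30 CPM in Zelnorm tumours (log2 fold change 0.83 ± 0.26, edgeR adjusted p = 0.3). Cebpa and Cebpb, factors of granulocyte and monocyte development, had log2 fold changes of 0.75 ± 0.26 and 0.56 ± 0.18 (SE) and edgeR adjusted p of 0.348 and 0.303. Mitf had 378 ± 37.7 and 573 ± 132 CPM, but this factor is also the main regulator of pigment cells, which form the bulk of the graft. The median of the list was 0.17 with the macrophage covariate and 0.15 with the pan-leukocyte covariate.

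A list held 14 related cytokine and receptor genes, such as Il3ra and Kit. Of these 8 were tested, 7 of them higher and 1 lower, with a median of 0.31 and 0 called by edgeR, DESeq2 or limma voom (1 at an unadjusted p under 0.05, where 6.94% of all tested genes were higher). With the pan-leukocyte covariate 5 were higher (median 0.034), with the macrophage covariate 6 (0.14), and without NC_5 the median was 0.18. Il3ra, the ligand-binding chain of the IL-3 receptor, had 9.25 ± 1.01 and 11.4 ± 1.25 CPM (log2 fold change 0.30 ± 0.13 SE, edgeR adjusted p = 0.453). Sdc1, a proteoglycan reported to bind IL-34, had 75.7 ± 5.04 and 82.6 ± 6.02 CPM. Il3 had 0 counts in all 7 libraries, and Il5 at most 1.

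Genes for shedding of CSF1 and its receptor from the cell surface, 6 in number, had a median of 0.18 (0.054 without the muscle-rich libraries, 0.095 without NC_5 and 0.10 without MBZ_15), with 0 called by edgeR, DESeq2 or limma voom and 2 at an unadjusted p under 0.05, 1 in each direction. Of all tested genes, 6.94% were higher and 3.38% lower at such a p by edgeR. Timp3, an inhibitor of the sheddase ADAM17, had 33.8 ± 4.59 and 43.3 ± 4.66 CPM, and Rhbdf1, a partner of ADAM17, had 58.2 ± 1.93 and 52.1 ± 3.82 CPM. Of 13 cytokines and NF-kappaB subunits that induce colony-stimulating factors, 6 were tested and all 6 were higher (median 0.38, and 0.12 without the muscle-rich libraries, 0.17 without MBZ_15, 0.18 with the pan-leukocyte and 0.145 with the macrophage covariate), with 0 called by the same 3 tools and 1 at an unadjusted p under 0.05. That gene was Tnf, with 0.302 ± 0.0782 and 0.685 ± 0.185 CPM from 4 to 17 counts a library. Nfkb1, an NF-kappaB subunit, had 69.0 ± 0.836 and 74.1 ± 2.58 CPM (log2 fold change 0.10 ± 0.06 SE).

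Genes with the most similar pattern over the 7 libraries were found by the Pearson correlation of log2 CPM. It was taken over 11128 tested genes whose mean log2 CPM was 1 or more. Symbols of gene models and pseudogenes were left out. For Csf1 they were Il10ra, a chain of the IL-10 receptor (r = 0.989), Ifi204, an interferon-inducible nucleic acid sensor (0.987), Rasa4, a Ras GTPase-activating protein (0.986), the lysosomal protease gene Ctsb (0.979) and Cybb of the phagocyte oxidase (0.979). For example, Il10ra had 3.79, 3.79 and 4.60 CPM in NC_5, NC_6 and NC_10 against 6.96 to 9.71 CPM in Zelnorm tumours. For Csf1r the first 4 were Zc3h12a, which encodes an RNase that degrades cytokine messages (0.998), the matrix protein gene Vwa1 (0.995), Cfp, which encodes properdin (0.989), and the carbonyl reductase gene Cbr2 (0.979). Cfp had 14.6, 10.7 and 28.6 CPM in NC_5, NC_6 and NC_10 and 23.3 to 36.2 CPM in Zelnorm tumours. The genes named for Csf1 and for Csf1r had none in common. Nothing is read from this, as both lists are short picks out of 11128 genes. With 7 libraries and this many genes compared, such coefficients carry no test, and the likeness of library order follows from the choice.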

How the data were processed

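The deposited table holds raw read counts per gene for 7 libraries and 21878 genes. The submitters' processing notes name Trimmomatic, HISAT2, Cufflinks, HTSeq and DESeq, and the builds GRCh38 and GRCm38; strand setting, annotation release and filters: not given in the sources used here. TRIzol RNA went into TruSeq Stranded mRNA libraries, per the labels' protocols. Columns name the group but no replicate number, so each was assigned to its group only. For 27 symbols turned into dates, the symbol was restored by gene ID, and 21727 genes matched the reference table of GRCm38.p6.

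Genes were kept by filterByExpr (12997), scaled by TMM and fitted with edgeR 4.0.16 in R 4.3.3 (quasi-likelihood test, Benjamini-Hochberg at 0.05, SE derived from F), with a common biological coefficient of variation of 0.111. DESeq2 1.42.0 and limma 3.58.1 were alternatives. log2 CPM used a prior count of 2. Exon lengths came from GENCODE M21. The fit was tested on simulated data. Members, 18 lists (194 genes, 193 in the table, 161 tested) and alternatives were chosen with earlier results of these data known. Named genes are all members, up to 4 genes with the smallest p per pathway list, the 2 most abundant tested genes per marker list, and the 5 genes most like Csf1 and Csf1r; other markers were named after their values were seen. A few genes that these rules select are not reported here.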

Additional observations from a re-analysis of the deposited data

Results flagged for a closer look

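Csf1r in MBZ_11 stood at 65.5 CPM, apart from the other Zelnorm tumours at 43.7 to 46.2 CPM, and its gap to the nearest of them was 0.885 of the group's range, above Dixon's critical value for 4 samples. Of 6 genes examined this was the only one past that limit, and chance alone passes it in about 1 of 20 groups. The same library had the highest macrophage marker sum (834 CPM) and the highest keratinocyte marker sum (17.4 CPM) of the 7 libraries. Without MBZ_11 the log2 fold change of Csf1r was 0.34 ± 0.29 (SE) against 0.50 with all libraries.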

How the results depend on the processing

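Other scalings, the fit without a filter, DESeq2, limma voom and the robust fit kept the log2 fold change of Csf1 between 0.59 and 0.60, of Csf1r between 0.49 and 0.59, of Csf2ra between 0.62 and 0.69, of Csf2rb between 0.45 and 0.55, of Csf3r between 0.65 and 0.70 and of Il34 between 0.18 and 0.19. With 1 library left out the ranges were 0.54 to 0.64 for Csf1, 0.24 to 1.02 for Csf1r, 0.38 to 0.94 for Csf2ra, 0.19 to 1.01 for Csf2rb, 0.45 to 1.11 for Csf3r and 0.09 to 0.29 for Il34. With the pan-leukocyte covariate the values were 0.41 (Csf1), -0.27 (Csf1r), 0.14 (Csf2ra), -0.38 (Csf2rb), -0.089 (Csf3r) and -0.22 (Csf2rb2), and with the macrophage covariate 0.48, -0.26, 0.11, -0.28, 0.020 and -0.40 in the same order. Il34 was at 0.20 and 0.35 in these fits. Without the 3 muscle-rich libraries Csf1 was at 0.47, Csf3r at 0.16 and Csf2rb at -0.030. Of the 6 tested genes, 2 separated the groups, and 5 without NC_10. Genes called over the whole table numbered 4, against 34 without a filter on low counts, 216 by DESeq2, 21 by the robust fit, 0 with the pan-leukocyte covariate (676 at an unadjusted p under 0.05), 57 with the macrophage covariate, 0 without the muscle-rich libraries (547 unadjusted), and 0 to 157 with 1 library left out (0 without NC_5, with 977 unadjusted, 157 without NC_10 and 21 without MBZ_15). The causes were not tested. By the longest transcript in place of all exons, Csf1 had 5.63 and Csf2rb 1.67 CPM per kb, and the first 3 ranks by mean level were the same. Csf2rb then stood further above Il34 (0.986) and Csf3r (0.880) than by all exons. Depth limits Csf2 and Csf3, at no more than 3 counts a library. No paired analysis was possible because no column shows which replicate number of the titles it belongs to.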
